A study of Mus musculus with 12 samples.

Results

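To compare male and female livers after colonization by microbes, the conventionalized (CV) mice of a series of germ-free (GF) and CV livers were examined for autosomal genes. The set held 10870 autosomal genes with a mean value of at least 10 over the 6 CV libraries, out of 41128 genes in the table, and the 6 CV libraries were part of 12. All mice were C57BL/6 littermates raised in sterile isolators until weaning at about day 21. CV mice then lived for 3 weeks in cages with used bedding from the animal facility, and GF mice stayed in the isolators. Livers were taken at 6 weeks of age from 3 mice labelled male and 3 labelled female in each condition, with 1 library per mouse. Poly(A)-selected RNA was sequenced. Values are read counts per gene that had been divided by a size factor of the library, called normalised read counts here, and differences are male minus female on the log2(value + 1) scale.

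The liver is one of the organs with the most marked sex differences in gene expression. In mice, the male pituitary releases growth hormone in separated pulses and the female pituitary releases it more continuously. Hepatocytes read this pattern through the growth hormone receptor, the kinase JAK2 and the transcription factor STAT5B, with the repressors BCL6 and CUX2 acting on genes of the opposite sex. Known targets include the major urinary proteins of males and sets of cytochromes P450, sulfotransferases and transporters in each sex.

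Recovered reads ranged from 8890529 to 15290835 in the CV libraries. The library labelled CV male 3 went against its label. Xist, the RNA that coats the inactive X chromosome of females, stood at 2382 in it, at 4.68 and 11.1 in CV males 1 and 2, and at 1045, 1089.6 and 1071 in CV females 1, 2 and 3. The Y-linked genes Uty, Ddx3y, Eif2s3y and Kdm5d (4 genes) together had 1314 reads in CV male 1, 867 in CV male 2 and 0 in CV male 3, which allows up to 3.37e-05% of its reads. CV females 1, 2 and 3 had 0, 0 and 1 of these reads. CV male 3 also differed from the females in a measure other than these sex-linked genes. Mitochondrial ribosomal RNA took 6.32% of its reads and 5.89% of those of CV male 2, against 1.39% in CV male 1 and 1.51% to 1.81% in the females. The part of this measure in the results below was not tested. Over all genes tested, CV male 3 was closest to CV male 2 (Spearman rho 0.961, across genes, against 0.943 to 0.959 with the females and 0.918 with CV male 1). The counts of genes are given with and without CV male 3, gene values include it throughout, and the library is called by its label. The livers expressed hepatocyte markers (8 of 8 detected, summed values from 419349 to 716045), whereas exocrine pancreas and skeletal muscle markers summed to at most 16.8 and 21.8. Adipose tissue markers summed to 215 in CV male 2 and 159 in CV male 3, against 49.4 in CV male 1 and 59.3 to 86.1 in the females. The part of adipose tissue in the results below was not tested.

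With the 3 libraries labelled male set against the 3 females, 7 genes passed the threshold (limma, Benjamini-Hochberg adjusted p under 0.05), 0.0644% of the genes tested. Mup11, Mup15, Mup16, Mup17, Mup18 and Cyp7a1 were higher (0.0552%) and A1bg was lower (0.0092%) in labelled males. In a fit of the 6 CV libraries alone 0 passed, with 690 genes at an unadjusted p under 0.05. By edgeR on all 12 libraries 22 genes passed, all of them higher, and by DESeq2 46. When reads were scaled to the total of each library, limma gave 9 higher and 8 lower. With the replicate number as a block, which pairs the CV libraries, 24 genes passed, 12 in each direction, and all 7 were among them. The count was 47 without CV male 1 and 3 or 4 without CV male 2, CV female 1, CV female 3, GF male 1, GF male 2, GF male 3 or GF female 2. Without CV male 3, 70 genes passed, 0.644% of those tested, with 39 higher in males (0.359%) and 31 lower (0.285%). For 24 of these the difference exceeded 5 on the log2 scale. The median difference over all genes tested was 0.0037. Leaving out any further library gave from 51 to 93 genes. CV males 1 and 2 did not overlap the 3 females at 2077 genes (19.1%; males higher at 11% and lower at 8.1%), and the 3 labelled males did not overlap them at 1179 (10.8%; 6.33% and 4.52%).

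**Figure D1:**
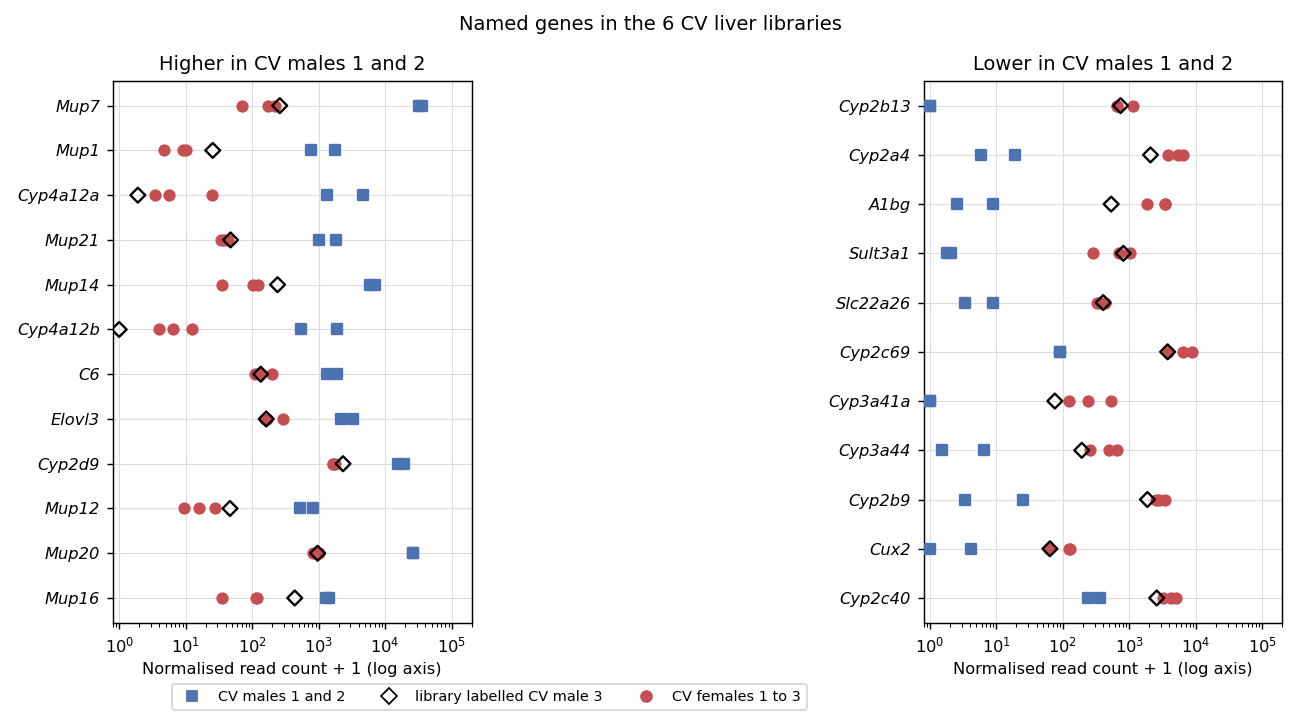
Normalised read count plus 1 (log axis) of the 12 higher and 11 of the 12 lower genes with the smallest adjusted p in their direction without CV male 3, in each of the 6 CV libraries. Squares are CV males 1 and 2, circles the 3 females and open diamonds the library labelled CV male 3, which lies at or near the females in nearly every row.

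Major urinary proteins are small lipocalins that the liver secretes and the kidney passes into urine, where they carry volatile pheromones. Of 22 genes listed, 21 were in the table and 18 were tested. Without CV male 3, 13 passed the test, all higher in males, against 0.359% of all genes tested. The median of the 18 was 4.88. Both males exceeded all females at each of the 18, where 11% of all genes did so in that direction. With CV male 3 included, 5 of the 18 passed, and the median was 3.79. The tested genes lie in a stretch of chromosome 4 (GRCm38) that holds 14 of the 70 called genes between 60066469 and 62150863, counting the pseudogene Mup-ps20.

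Mup7 (ENSMUSG00000073842, chromosome 4, 60066469 to 60070475) had normalised read counts of 35513 and 31907 in CV males 1 and 2 and of 68.6, 219.7 and 172 in females. The groups lay 7.93 ± 0.45 apart (log2, SE; limma adjusted p = 6.97e-09). CV male 3 had 259, just above the highest female. Mup20, which encodes the pheromone protein darcin, showed the same layout. It stood at 25981 and 26244 in males 1 and 2, at 996, 825 and 958 in females, and at 963 in CV male 3, inside the female range.

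Mup18 (ENSMUSG00000078674, chromosome 4, 61670177 to 61674136) was placed otherwise. Males 1 and 2 had 1563 and 2128, females 44.6, 189 and 213, and CV male 3 had 2193, above every other CV library. It passed the test in the labelled comparison (3.98 ± 0.44, limma adjusted p = 9.13e-04), without CV male 3 (3.89 ± 0.49, adjusted p = 1.51e-04), and when CV male 3 alone was set against the females (4.16 ± 0.62, adjusted p = 0.0466). In the last comparison it was the 1 gene that passed of 10870 (0.0092%, and higher at 0.0092%), and 704 had an unadjusted p under 0.05. This call rests on 1 library and was lost in 8 of 26 alternatives, with adjusted p up to 0.250, among them a pseudocount of 0.5 (0.0578), the CV libraries alone (0.167), removal of length and GC trends (0.250), and leaving out GF male 2 (0.0678), GF male 3 (0.109), GF female 1 (0.121), CV male 1 (0.0808) or CV male 2 (0.0916). By edgeR 3 genes passed there and by DESeq2 9.

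**Figure D2:**
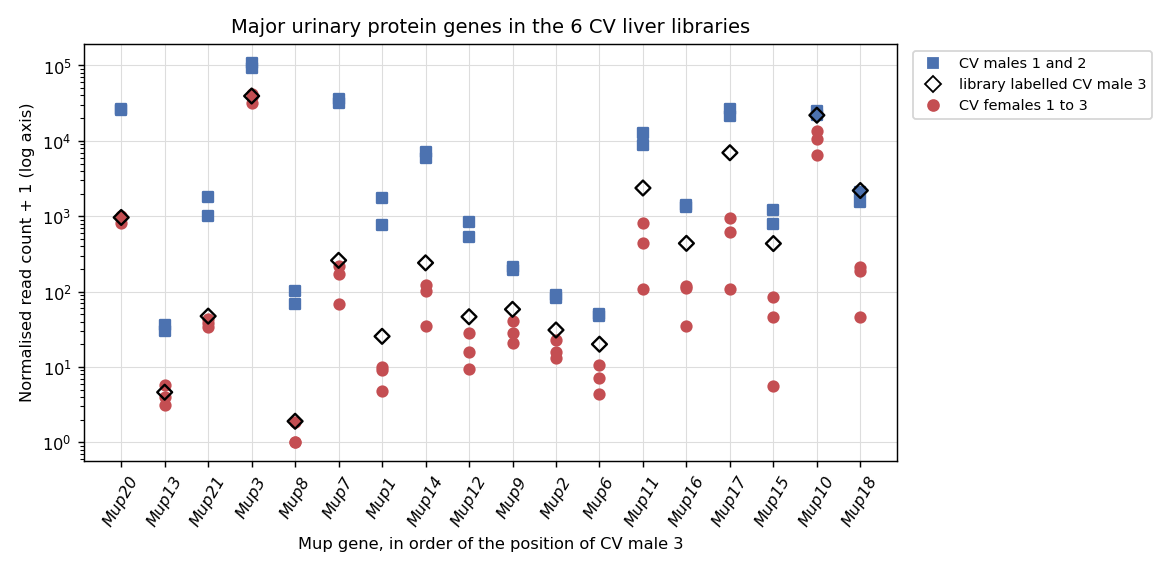
Normalised read count plus 1 (log axis) of the 18 tested Mup genes in the 6 CV libraries, ordered from left to right by where CV male 3 lies between the females and CV males 1 and 2. CV male 3 (open diamonds) is with the females at Mup20, Mup21 and Mup8 on the left and with the males (squares) at Mup10 and Mup18 on the right.

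The other Mup genes spread between these placements. On the linear scale, with the female mean at 0% and the mean of males 1 and 2 at 100%, CV male 3 stood at 0.315% for Mup7, 0.146% for Mup20, 0.631% for Mup21, 1.41% for Mup1 and 2.42% for Mup14. It stood at 18.7% for Mup11, 27.2% for Mup16, 27.4% for Mup17, 40.5% for Mup15 and 120% for Mup18. These shares differed from one Mup gene to the next. Mup17 had 21279 and 26529 in males 1 and 2, 109, 942 and 612 in females and 6960.2 in CV male 3, above every female and below both males. These genes are near copies, and reads shared by several of them may be divided among them or left out, depending on the counting rule. Of the 13 called Mup genes, 12 share over 50% of their 50-base transcript windows with another gene. Mup18 shares 89.6%, most of it with Mup16, and Mup7 90.2%, most of it with Mup1. The part of shared reads in these placements was not tested. Mup21 shares 19.3%.

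The near identity reaches the promoters, which are shown for the 2 copies at opposite ends of the placement. The runs are the bases before the annotated start in the RefSeq entry on GRCm38.p6, cut off where a GENCODE exon begins, and capitals mark ATCAAT on either strand, a motif bound by HNF6 and by CUX proteins, which does not overlap the other motif searched in these runs. The Mup7 run is on the minus strand at chr4:60070476-60070725 and the Mup18 run on the minus strand at chr4:61674137-61674344.
Mup7: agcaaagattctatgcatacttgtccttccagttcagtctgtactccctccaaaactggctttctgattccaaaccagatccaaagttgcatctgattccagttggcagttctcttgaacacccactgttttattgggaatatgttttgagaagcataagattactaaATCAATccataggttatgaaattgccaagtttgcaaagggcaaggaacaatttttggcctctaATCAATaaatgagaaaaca
Mup18: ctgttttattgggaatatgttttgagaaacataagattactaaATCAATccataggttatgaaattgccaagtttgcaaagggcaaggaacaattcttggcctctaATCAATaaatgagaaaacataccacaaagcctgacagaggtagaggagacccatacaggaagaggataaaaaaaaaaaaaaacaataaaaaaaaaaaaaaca
Over the 125 bases that align, 123 are identical. Both copies of the motif are kept in each, at positions -82 and -19 from the start of Mup7 and at -207 and -144 from that of Mup18, because the annotated starts differ. ATCAAT was found in 9 of 26 promoter entries (34.6%) of called genes higher in males, in 1 of 18 when the Mup genes were left out, and in 7 of 31 (22.6%) of those lower in males. It was in 4.33% of the entries of all tested autosomal genes. The STAT5 core TTCNNNGAA, which reads the same on both strands, was found in 1 of 26 and in 6 of 31 entries, against 6.87%. Entries matched 48 of the 70 called genes, and paralogs share sequence, so that these matches are not independent. A match is a description of the letters and not of binding.

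Among male-biased cytochromes P450, 4 of 6 tested members were higher in males without CV male 3, against 0.359% of all genes tested. With it limma called 0 of 6, edgeR 3 and DESeq2 4. In limma 4 of the 6 then had an unadjusted p under 0.05, against 4.90% of all genes tested. The median difference of the list was 3.37 without it and 2.34 with it. Cyp4a12a (ENSMUSG00000066071, chromosome 4, 115299046 to 115332815), an enzyme that hydroxylates arachidonic acid, had 4664 and 1343 in CV males 1 and 2 and 4.63, 23.5 and 2.41 in females. CV male 3 had 0.909, the value of 1 read, below all 3 females. The neighbouring Cyp4a12b had 1907 and 546 in those males, 2.94, 11.4 and 5.42 in females and 0 reads in CV male 3. The fitted differences of Cyp4a12a and Cyp4a12b were 8.33 ± 0.63 and 7.23 ± 0.64. Of their transcript windows, 48.9% and 49.4% are shared, each with the other gene. Cyp2d9, a steroid hydroxylase, had 19338 and 15577 in males 1 and 2, against 1658, 1769 and 1624 in females and 2324 in CV male 3. Cyp7b1, which hydroxylates oxysterols, had 2314 and 1043 against 119, 181 and 151, with 154 in CV male 3.

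Male-biased enzymes of steroid, lipid and conjugation metabolism were higher in males for 5 of 8 tested members without CV male 3, with a median of 2.14. Of all genes tested 0.359% were higher. With CV male 3 limma and edgeR called 0 and DESeq2 1, and the median was 1.28. In limma 5 of the 8 then had an unadjusted p under 0.05, against 4.90% of all genes tested. Elovl3, which elongates very long fatty acids, had 3291 and 2137 in males 1 and 2, 166, 285 and 156 in females and 162 in CV male 3. Hsd3b5, a steroid dehydrogenase family member, had 1815 and 975 against 33.6, 154 and 60.8, and CV male 3 had 28.2, below the lowest female. In these enzymes CV male 3 lay at or below the female values. Selenbp2, Gstp1 and Ugt2b1 also passed, at 4.29 ± 0.63, 2.21 ± 0.48 and 1.87 ± 0.36. Male-biased secreted and surface proteins gave 2 of 7 without CV male 3 (0 with it by limma, 1 by edgeR and 2 by DESeq2, with 2 at an unadjusted p under 0.05), the complement component C6 at 3.48 ± 0.31 and Susd4, a complement regulator, at 3.10 ± 0.50. C6 had 1879.9 and 1333 in males 1 and 2, 109, 199 and 130.1 in females and 134 in CV male 3. Serpina1e, a serine protease inhibitor of the alpha-1-antitrypsin family, did not pass (3.02 ± 0.75, adjusted p = 0.0957). Its values were 34456 and 22766 in males 1 and 2, 769, 7312 and 7372 in females and 712 in CV male 3, so that CV male 3 and CV female 1 lay together, well below the other females.

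Female-biased P450s of the Cyp2b and Cyp3a families had a median difference of -7.97 without CV male 3 and of -5.75 with it. The lists were chosen with earlier results of these data known, so their medians and counts may restate that choice. Of 5 tested members of the Cyp2b and Cyp3a list, 4 were lower in males without CV male 3, against 0.285% of all genes tested. With it 0 passed by limma, edgeR or DESeq2. In limma all 5 then had an unadjusted p under 0.05, against 4.90% of all genes tested. Cyp2b13 (ENSMUSG00000040583, chromosome 7, 26061497 to 26096197) had 0 reads in CV males 1 and 2 and values of 1112, 659 and 648 in females. Taken against 3 reads per library, the females were at least 409-fold higher. CV male 3 had 733, between the females. Cyp2b9, its neighbour, had 23.9 and 2.39 in males 1 and 2, 3470.0, 2488 and 2811 in females and 1862 in CV male 3, below the females and far above both males. Cyp3a41a also had 0 reads in both males, where females had 124, 531 and 238, at least 151-fold more, and CV male 3 had 74.5. Cyp3a44 had 0.52 and 5.57 in males, 256, 659.7 and 488 in females and 191 in CV male 3. Cyp2b10, the fifth tested member, overlapped between the groups, with 850 and 270 in males and 1144, 1075 and 606 in females. Nearly all of the transcript windows of Cyp3a41a (98.6%) are shared with another gene, so its reads cannot be assigned to one copy with certainty.

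The promoters of Cyp2b13 and Cyp2b9 are shown because these neighbours are among the genes with the largest differences and are almost the same before their starts. Both runs are on the plus strand of GRCm38.p6, at chr7:26061245-26061494 and chr7:26173159-26173408, and capitals mark the positions where they differ.
Cyp2b13: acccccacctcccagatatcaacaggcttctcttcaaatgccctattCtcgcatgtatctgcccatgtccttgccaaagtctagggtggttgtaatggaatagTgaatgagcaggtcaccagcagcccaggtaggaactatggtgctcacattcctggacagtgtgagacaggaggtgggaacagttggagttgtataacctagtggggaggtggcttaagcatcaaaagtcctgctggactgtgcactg
Cyp2b9: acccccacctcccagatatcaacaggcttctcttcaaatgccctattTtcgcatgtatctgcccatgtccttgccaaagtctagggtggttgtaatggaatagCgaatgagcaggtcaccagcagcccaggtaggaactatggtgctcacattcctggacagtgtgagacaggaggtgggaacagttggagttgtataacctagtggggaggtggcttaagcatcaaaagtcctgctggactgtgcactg
They are identical at 248 of 250 bases, and neither ATCAAT nor TTCNNNGAA was found in these runs. CV males 1 and 2 had 0 reads of Cyp2b13 and low but detected values of Cyp2b9.

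Other female-biased P450s gave 4 of 9 lower in males without CV male 3, against 0.285% of all genes tested, with a median of -2.44. With it 0 passed by limma, edgeR or DESeq2, and the median was -1.55. In limma 6 of the 9 then had an unadjusted p under 0.05, against 4.90% of all genes tested. Cyp2a4 (ENSMUSG00000074254, chromosome 7, 26307169 to 26315088), a testosterone hydroxylase in the same stretch of chromosome 7 as both Cyp2b genes, had 17.7 and 4.77 in males 1 and 2 and 3754, 5372 and 6429 in females. The difference was -8.93 ± 0.45 (limma adjusted p = 2.52e-09). CV male 3 had 2069.6, below every female but far above both males. Cyp2c69 had 90.6 and 89.0 in males 1 and 2, 3844, 6497 and 8762 in females and 3749 in CV male 3. Cyp2c40, beside it on chromosome 19, had 237 and 359 against 3152, 4272 and 5009, with 2568 in CV male 3. Cyp2c40 shares 72.1% of its transcript windows and Cyp2c69 54.8%, each most with the other, so these values are not independent. Cyp17a1, which makes androgen precursors, was 1 of 3 members in which CV male 3 lay beyond the females, with Cyp2c39 and Cyp2g1, which were not called. Cyp17a1 had 789.5 there, 551, 631 and 561 in females and 65.6 and 87.5 in males 1 and 2.

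Of 7 sulfotransferase genes listed, which encode enzymes that attach sulfate to steroids and other small molecules, 4 were under the minimum, and the 3 tested were lower in males without CV male 3. Of all genes tested 0.285% were lower. With CV male 3 included, 0 of the 3 passed by limma, edgeR or DESeq2. Sult3a1, a sulfotransferase, had 1.04 and 0.795 in males (3 reads in all) and 281, 689 and 1019 in females. The ratio of females to males was 649 with a 95% counting interval from 222 to 3149, and CV male 3 had 808. Sult2a1, a hydroxysteroid sulfotransferase, had 0 and 0.795 in males and 27.3, 24.2 and 45.2 in females, whereas CV male 3 had 234, far above the highest female. The males had 1 read in all, and the ratio of females to males was 101 (17.9 to 4021). Sult2a2 gave 79.9 in CV male 3 against 26.1, 26.2 and 30.7 in females and 0 reads in both males, with females at least 14.0-fold higher. In both Sult2a genes CV male 3 lay beyond the females, on the side away from CV males 1 and 2. Sult2a1 shares 33.2% of its transcript windows and Sult2a2 62.1%, each most with the other, so these values are not independent.

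Female-biased genes of lipid handling and transport gave 5 of 9 lower in males without CV male 3, with a median of -2.24. Of all genes tested 0.285% were lower. With CV male 3 included, 0 passed by limma, edgeR or DESeq2, and the median was -1.62. In limma 6 of the 9 then had an unadjusted p under 0.05, against 4.90% of all genes tested. The transporter genes Slc22a26 and Slc22a27 had 7.81 and 2.39 each in males 1 and 2. In females Slc22a26 had 321, 359 and 433, and CV male 3 had 402. Slc22a27 had 165, 157 and 176, and CV male 3 had 142. The 3 others were Hao2, a hydroxyacid oxidase (-5.65 ± 0.67), Acot3, an acyl-CoA thioesterase (-2.90 ± 0.48), and Abcd2, a peroxisomal fatty acid transporter (-2.24 ± 0.38). Of 7 secreted and surface proteins, A1bg, Prlr and Nipal1 passed. A1bg (ENSMUSG00000022347, chromosome 15, 60896859 to 60923012), a plasma glycoprotein of the immunoglobulin superfamily, had 7.81 and 1.59 in males 1 and 2 and 1824, 3404 and 3437 in females. It differed by -9.18 ± 0.52 (limma adjusted p = 6.97e-09) without CV male 3, which had 529.7. With CV male 3 the difference was -6.92 ± 1.21 (adjusted p = 0.0491), and this call was lost when any other library was left out.

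Genes of the growth hormone and STAT5 axis were tested as a separate list. Of 22 tested, 3 were lower in males and 0 higher without CV male 3, with a median of -0.072. Of all genes tested 0.285% were lower and 0.359% higher. With CV male 3 included, 0 passed by limma, edgeR or DESeq2, and the median was -0.021. In limma 6 of the 22 then had an unadjusted p under 0.05, against 4.90% of all genes tested. Cux2, a repressor of male-biased genes in female liver, had 0 and 3.18 in males 1 and 2, 60.6, 128 and 123 in females and 62.7 in CV male 3. Prlr, the prolactin receptor, had 649 and 569 in males, 1436, 1908 and 2093 in females and 2316 in CV male 3. Esr1, the estrogen receptor alpha, had 63.0 and 48.5 in males, 169.5, 187 and 146 in females and 193 in CV male 3. For all 3 genes CV male 3 was within or above the female range. The calls of Prlr and Esr1 were lost when CV male 1 (adjusted p = 0.0531 and 0.0991) or CV male 2 (0.133 and 0.375) was left out, and likewise without CV female 2 or CV female 3. The upstream members were not called. Ghr, the growth hormone receptor, had 4240 and 2474 in males and 2711, 2495 and 2215 in females. Stat5b had 274 and 202 against 369, 263 and 273, and Bcl6 had 493 and 142 against 139, 128 and 179. Igf1, a hepatic target of growth hormone in both sexes, had 4846 and 4920 against 4953, 7775 and 7982.

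Of 19 bile acid genes, Cyp7a1 and Cyp7b1 were higher in males without CV male 3, against 0.359% of all genes tested. The median was 0.074. Cyp7a1 (ENSMUSG00000028240, chromosome 4, 6265612 to 6275633), the rate-limiting enzyme of bile acid synthesis from cholesterol, had 534 and 401 in males 1 and 2, 362 in CV male 3 and 52.2, 207 and 90.9 in females. All 3 labelled males lay above the females, and the difference was 2.09 ± 0.36 with CV male 3 (limma adjusted p = 0.0491) and 2.21 ± 0.41 without it (adjusted p = 0.00995). The second call was lost without CV male 1 (adjusted p = 0.150), CV male 2 (0.0796) or CV female 3 (0.0535), and the first without any single library other than CV male 3 and CV female 2. Cyp8b1, which sets the share of cholic acid, had 8857 and 3217 in males 1 and 2, 1004, 3471 and 1777 in females and 1346 in CV male 3, and was not called (1.54 ± 0.53, adjusted p = 0.544).

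Lists of other liver functions were tested in the same way. Without CV male 3, limma called 0 of 21 genes of cholesterol synthesis (1 with an unadjusted p under 0.05), 0 of 19 of lipogenesis (2), 0 of 23 PPARA targets (5), 0 of 21 acute phase genes (5), 0 of 17 clock genes (3), 0 of 7 MHC class II genes (3) and 0 of 19 interferon genes (1). By edgeR 1 acute phase and 1 clock gene passed, and by DESeq2 2 PPARA targets, 2 acute phase genes and 1 clock gene. The medians of these lists ran from -0.77 for MHC class II to 0.38 for the clock. With CV male 3 limma and edgeR called 0 in each of these lists and DESeq2 1 acute phase and 1 clock gene, with 2, 3, 5, 5, 3, 0 and 0 members, in the order above, at an unadjusted p under 0.05. Over all genes tested, 4.33% had an unadjusted p under 0.05 in limma without CV male 3 and 4.90% with it. Without CV male 3 the cholesterol and interferon lists lay near that share and the other lists above it.

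The position of CV male 3 was taken for each of the 70 genes as its distance from the female mean divided by the distance between the females and males 1 and 2, so that 0 is the female mean and 1 the mean of the other males. Its values entered the choice of genes through the minimum mean alone. With that mean taken over the 5 other CV libraries, the same 70 genes were called, and 63 were nearer to the females. The median position was 0.107, and CV male 3 was nearer to the females at 63 of 70 genes, or 90%. The genes are not independent, and the share describes 1 library. CV male 3 lay inside the female range at 19 genes, beyond the females at 13, between the ranges at 36, inside the range of males 1 and 2 at 1 and beyond the males at 1. The genes at or past the middle were Mup11, Mup15, Mup16, Mup17, Mup18, Cyp7a1 and Tm6sf2. Tm6sf2, a membrane protein needed for secretion of triglyceride-rich lipoproteins, was the gene inside the range of males 1 and 2. It had 363 and 150.3 in those males, 327 in CV male 3 and 698, 651 and 745 in females. Mup genes had a median position of 0.284 over 13 genes. The 26 other genes higher in males had a median of -0.025, and the 31 genes lower in males 0.115. Without CV male 1, CV male 3 was nearer to the females at 72.5% of the 69 genes then called.

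**Figure D3:**
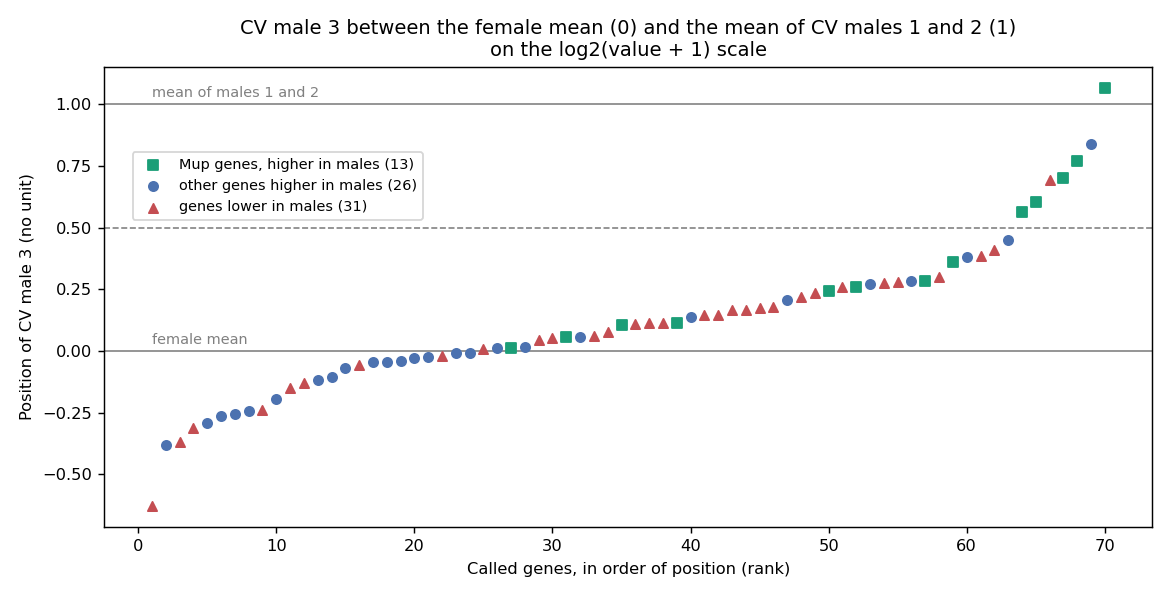
Position of the library labelled CV male 3 for each of the 70 genes called without it, ranked; 0 is the mean of the 3 females and 1 the mean of CV males 1 and 2, on the log2(value + 1) scale. Of the 70 genes, 63 lie below 0.5, and of the 7 above it 5 are Mup genes (squares).

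The same placement was made with genes called in GF livers. Of 186 genes called between GF males and females, 76 also differed by at least 1 (log2) the same way between CV males 1 and 2 and the females. CV male 3 was nearer to the females at 64 of these, with a median position of 0.091. With CV male 3 left out of the fit that called the GF genes, it was nearer to the females at 98 of 112. When CV male 3 was a group of its own, 44 genes differed from CV males 1 and 2 (0.405%), 23 higher (0.212%) and 21 lower (0.193%), 25 without CV male 1 and 67 without CV male 2. Among the higher were the metallothioneins, which bind zinc and copper. Mt1 had 16193 in CV male 3, 1074 and 2166 in males 1 and 2 and 2700.3, 5445 and 6983 in females. Mt2 had 2414, against 125 and 220.2 in males and 396, 793 and 1240.3 in females. For both genes CV male 3 lay above all 5 other CV libraries. Hamp2, a hepcidin gene, had 3888 in CV male 3, 435 and 619 in males and 1767, 1509 and 648 in females. The acute phase gene Saa1 had 1602 in CV male 3 and from 170 to 433 in the other CV libraries.

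The sex difference in CV livers was set beside that in GF livers, which share no sample with it. In GF livers 186 genes passed (1.71%), 141 higher (1.3%) and 45 lower (0.414%) in males, and CV livers without CV male 3 gave 70. Both held 46 genes in the same direction, which is 24.7% of the GF calls and 65.7% of the CV calls, and 0 in opposite directions. The GF count comes from the fit of all 12 libraries, whose spread includes CV male 3. Without CV male 3 it was 261, of which 61 were shared in the same direction and 1, Arl4d, in the opposite one, and in the GF libraries alone it was 117, of which 56 were shared. Mitochondrial ribosomal RNA took 9.36% to 16.4% of the reads of GF libraries and 1.39% to 6.32% of those of CV libraries, and the nuclear gene Lars2 took 17.3% to 28.5% against 2.15% to 8.79%. Their part in the comparison of GF with CV livers was not tested. Of the 70 CV calls, 67 had the same sign in GF livers, a share that was not taken over all genes tested. Among the Mup genes, 17 passed in GF and 13 in CV livers. Mup3, the Mup gene with the most reads, had 37843, 84056 and 56196 in GF males and 5609, 12861 and 5112 in GF females (2.97 ± 0.50, limma adjusted p = 0.0058). In CV livers Mup3 had 107998 and 91644 in males 1 and 2, 31552, 42080.1 and 37702 in females and 39354 in CV male 3, and was not called (1.43 ± 0.52, adjusted p = 0.699). The difference of these differences, -1.54 ± 0.70, did not pass either (adjusted p = 0.628).

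**Figure D4:**
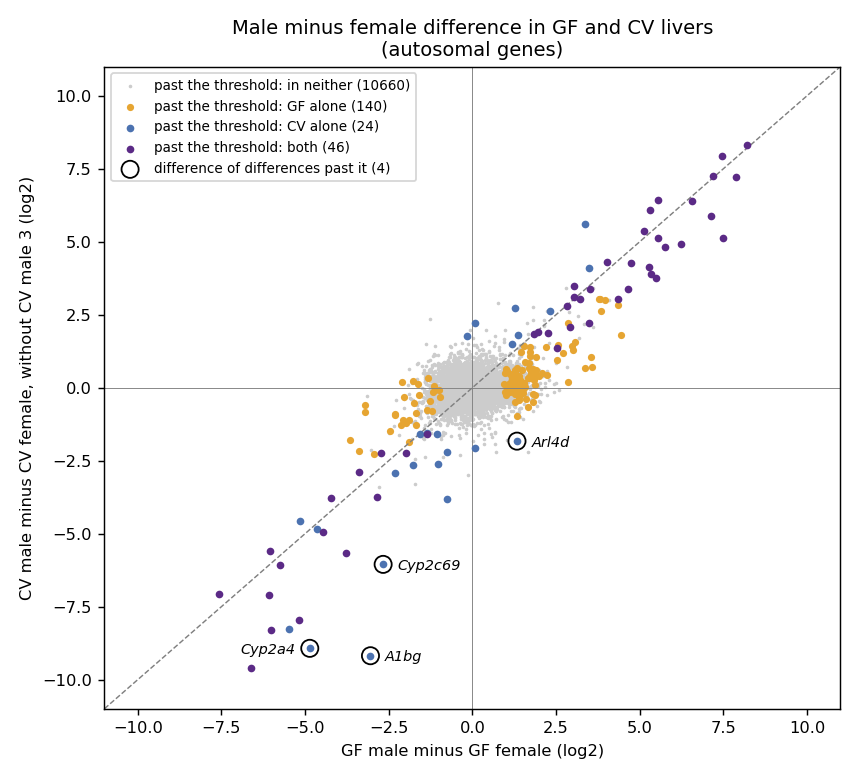
Male minus female difference (log2) of the 10870 autosomal genes in GF livers (horizontal) and in CV livers without CV male 3 (vertical). The 46 points past the threshold in both have the same sign, some of them well off the dashed line of equal differences (Cyp2b13 at -6.63 in GF and -9.61 in CV), the 140 past it in GF alone mostly have small CV differences, and the 4 circled genes differed between the conditions.

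The test of the difference of differences called 0 genes (0%) with CV male 3 by limma, where 1268 had an unadjusted p under 0.05. On the same comparison edgeR called 0 and DESeq2 13, the replicate block gave 1, and 297 genes passed without CV male 1. Without CV male 3, 4 genes passed (0.0368%), all with a more negative difference in CV livers, and 10 with the replicate block. A1bg, whose CV values are given above, had 9.85, 12.0 and 11.3 in GF males and 179.6, 114 and 46.0 in GF females. Cyp2a4 had 52.8, 34.6 and 25.5 in GF males and 1339, 1341 and 692 in GF females. Cyp2c69 had 147, 216 and 184 in GF males and 1356, 1928 and 581 in GF females. In each of these 3 genes CV males 1 and 2 were below every GF male and CV females above every GF female. Arl4d, a small GTPase of the ARF family, turned over instead. It had 495, 549.6 and 383 in GF males and 252, 234 and 109 in GF females, but 88.5 and 53.3 in CV males 1 and 2, 168 in CV male 3 and 289.8, 261 and 199 in CV females. Cyp7a1 had 170.1, 194 and 198 in GF males and 149, 207 and 182 in GF females, and its difference of differences did not pass (2.13 ± 0.55, adjusted p = 0.543).

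Of the 70 called genes, 40 fell into 13 groups of at least 2 genes less than 1000000 bases apart, and in 8 of these all members moved one way. The same grouping was not made for all tested genes, so these counts have no share to be set against. Chromosome 4 held 18 called genes of 728 tested (2.47%) and chromosome 19 held 9 of 413 (2.18%). Of all genes tested, 0.644% were called. On chromosome 19, Slc22a26 and Slc22a27 were lower and the adjacent Slc22a28 was higher in males (111 and 35.8 against 3.79, 8.73 and 9.63, with 3.63 in CV male 3).

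Markers of other cells were also set beside these groups. Kupffer cell and macrophage markers were lower in CV males 1 and 2 than in all females at each of 7 tested genes, with a median of -0.84. Limma, edgeR and DESeq2 called 0 of the 7, and all 7 had an unadjusted p under 0.05 in limma. Over all genes tested, males 1 and 2 lay below all females at 8.1% and 4.33% had an unadjusted p under 0.05. Summed over 8 markers they gave 1442 and 2182 in males 1 and 2, 2795, 3344 and 3281 in females and 3116 in CV male 3. MHC class II genes summed to 1092 and 1931 in males 1 and 2, 2799, 2158 and 2513 in females and 3471 in CV male 3. In the first sum CV male 3 lay inside the female range, and in the second above it. Bile duct markers were different. They summed to 1616 in CV male 2 and 1500.0 in CV male 3, and to between 527 and 736 in CV male 1 and the females, so that the same libraries stood apart as in mitochondrial ribosomal RNA. In whole tissue, fewer cells of a type and less RNA per cell cannot be told apart. The part of these cells in the sex differences was not tested.

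**Figure D5:**
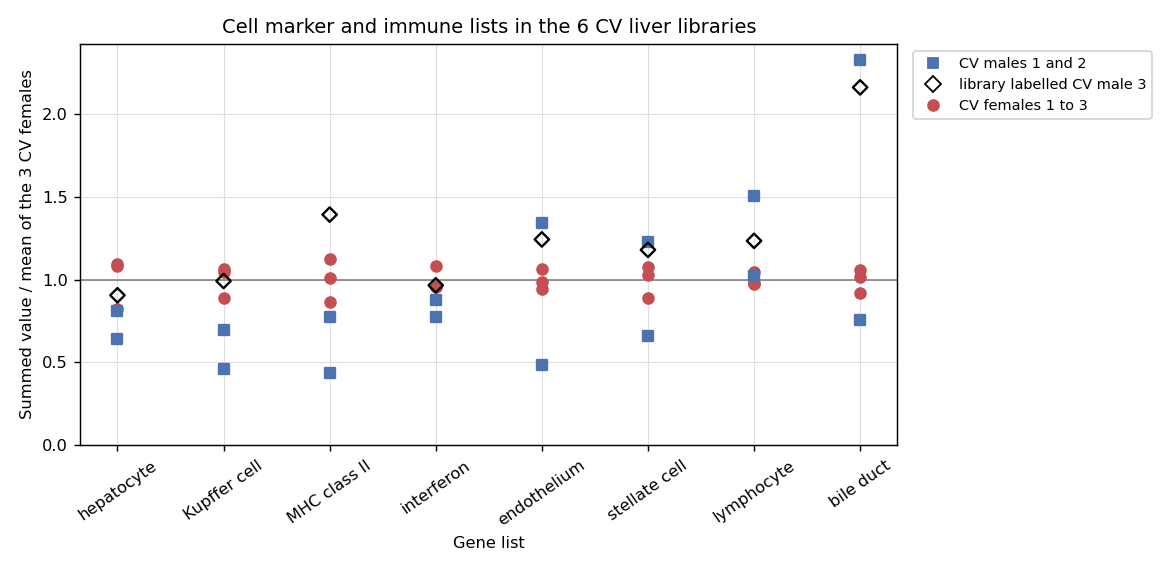
Summed normalised read count of each cell marker or immune list, divided by the mean of the 3 CV females (horizontal line at 1), in the 6 CV libraries. CV male 3 (open diamonds) is with the females for Kupffer cell markers and with CV male 2 for bile duct markers.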

How the data were processed

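The authors deposited, for 12 liver libraries, a normalized signal per gene, that is, gene counts divided by a size factor of the library. The submitters' processing notes name HTSeq 0.6.1p1, DESeq2 and GRCm38. The aligner, the annotation release and the strand setting are not given in the sources used here. In every library 100% of values were whole multiples of 1 read (within 0.01 reads), so that reads could be recovered. Libraries of stranded poly(A) RNA came from single mice, and groups and replicate numbers were taken from titles.

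limma 3.58.1 was fitted in R 4.3.3 to log2(value + 1) of 11227 genes with a mean of at least 10 over the 6 CV libraries, in all 12 libraries (11 without CV male 3), with 1 mean per group, a variance trend and Benjamini-Hochberg adjustment over the 11227 genes at 0.05, two-sided. The log2(value + 1) scale understates changes of low genes. Of these genes 10870 are autosomal, 307 X-linked, 5 Y-linked, 10 mitochondrial and 35 without a chromosome. The mean lay at 10.0 in the lowest gene kept (Fam19a2) and at 9.998 in the highest left out (Rpia). CV male 3 was also fitted as a group of its own, and this lone library is then assumed to vary like the others. CV libraries with the same replicate number deviated together (r of 0.247, 0.133 and 0.214), so that the block pairs them. CV libraries with different numbers gave r from -0.199 to 0.00992. The CV male mean used here includes CV male 3. In GF libraries r was 0.0424, 0.408 and 0.0646 for the same number, and 0.394 for GF male 1 with GF female 3. The labels give no litter for the numbers. p-values measure the spread between these mice.

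Alternatives were edgeR 4.0.16 and DESeq2 1.42.0 on recovered reads, other pseudocounts, filters and scalings, and leaving out each library. The named genes were the 12 smallest adjusted p in each direction without CV male 3, the 3 smallest in each direction in the labelled comparison without overlap of libraries, members of the lists, and the sex and mitochondrial checks. Genes such as Arl4d, Tm6sf2, Mt1, Mt2, Hamp2, Slc22a28, Car3, G0s2, Hsd17b6 and Ctsc fall outside this rule and were chosen after their values were seen. The genes and lists were chosen with earlier results of these data known. Coordinates are those of GENCODE mouse release 21, and intervals cover counting error only. Of the 70 called genes, 24 overlap another gene on either strand, among them A1bg, Cyp2a4, Cux2, G0s2 and Elovl3, and their reads may not be theirs alone. The values of 1 of the named genes, and of a list that holds it, are not reported here.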

Additional observations from a re-analysis of the deposited data

Results flagged for a closer look

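In 4 genes the male minus female difference was not the same in CV livers as in GF livers by the test of the difference itself, without the library labelled CV male 3 (limma, Benjamini-Hochberg adjustment). For A1bg the difference of differences was -6.14 ± 0.70 (log2, SE; adjusted p = 0.00143), for Cyp2a4 it was -4.07 ± 0.60 (adjusted p = 0.0189), for Cyp2c69 -3.38 ± 0.57 (adjusted p = 0.0485) and for Arl4d -3.16 ± 0.48 (adjusted p = 0.0189). CV males 1 and 2 lay below all 3 CV females at each of the 4. All 4 lost their call in the fit without a filter on low values, where adjusted p rose to 0.119 for A1bg. DESeq2, which gave an adjusted p for 542 genes in this comparison, called Cyp2a4 and Cyp2c69 and gave none for A1bg and Arl4d. A1bg passed under every other alternative that gave it an adjusted p. Among the alternatives that gave an adjusted p, the call was lost in 11 of 27 for Cyp2c69, 6 of 27 for Cyp2a4 and 6 of 26 for Arl4d. Cyp2c69 lost its call with edgeR and TMM factors (adjusted p = 0.0808), and the calls of Arl4d, Cyp2a4 and Cyp2c69 were lost without CV male 2 (adjusted p = 0.281, 0.221 and 0.464).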

How the results depend on the processing

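Of the 70 genes called without CV male 3, 36 were called under every alternative run and 39 with every library left out in turn, and the 24 genes with the smallest adjusted p were called under all of them. No direction was reversed among the genes called in the labelled comparison, without CV male 3, in the difference of differences without it, and in CV male 3 against the females; the genes of CV male 3 against males 1 and 2 were followed by count alone. The 70 became 113 in the CV libraries alone, 109 and 108 by edgeR with TMM and RLE factors, 202 by edgeR without a low-count filter, 156 by DESeq2 and from 51 to 93 with 1 library left out. The 7 genes of the labelled comparison became 4 with a pseudocount of 0.5, 3 without a filter on low values, 0 in the CV libraries alone, 22 by edgeR with either factor, 153 by edgeR without a filter, 46 by DESeq2, 17 scaled to all reads, 13 scaled to reads outside mitochondrial genes, 3 at an adjusted p under 0.01 and from 3 to 70 with 1 library left out, 70 being without CV male 3. The difference of differences with CV male 3 gave 100 genes by edgeR without a filter, 13 by DESeq2, 11 scaled to all reads and from 0 to 297 with 1 library left out. Its 4 genes without CV male 3 became 0 without a filter, 61 by edgeR without a filter, 12 by DESeq2 and scaled to all reads, 1 at an adjusted p under 0.01, and from 1 to 6 with 1 library left out (1 without GF male 2, CV male 2 or CV female 2, and 2 without GF male 1 or CV female 3). The 1 gene of CV male 3 against the females became 0 with a pseudocount of 0.5, in the CV libraries alone, with length and GC trends removed and at an adjusted p under 0.01, 211 without a filter, 3 by edgeR with either factor, 32 by edgeR without a filter, 9 by DESeq2, and from 0 to 2 with 1 library left out. The 44 genes of CV male 3 against males 1 and 2 became 242 without a filter, 111 by edgeR without a filter, 91 by DESeq2, 25 without CV male 1 and 67 without CV male 2. The 186 genes of the GF comparison became 117 in the GF libraries alone and 261 without CV male 3, both chosen after seeing the data, as was the minimum mean without CV male 3, which left the 70 in place. The share of genes at which CV male 3 was nearer to the females ran from 72.5% to 93.0% with 1 library left out. The causes of these moves were not tested. Scaling to all reads moved the median difference of all genes to -0.16 in the labelled comparison, to -0.11 without CV male 3 and to -0.58 in the difference of differences with it.

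With the replicate number as a block, the pairing gave 24, 1 and 10 genes for the labelled comparison and for the difference of differences with and without CV male 3, and 15, 2 and 7 with length and GC trends removed as well. The 70 became 84, and the calls of Gm4956, Mcm10, Car3, Nat8 and Aldh3b3 were lost. With 2 or 3 libraries in a group, and with males 1 and 2 alone standing for CV males, differences of low genes and of less than a few-fold were limited by the spread between mice.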

Other observations

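Some genes outside the main lists also passed without CV male 3. Car3, a carbonic anhydrase abundant in male liver and muscle, had 36140 and 20383 in CV males 1 and 2, 11944 in CV male 3 and 7021, 8928 and 6015 in CV females. G0s2, an inhibitor of the lipase that releases fatty acids from stored fat, had 3159 and 1519 in CV males 1 and 2, 1112 in CV male 3 and 465, 846 and 657 in CV females. For both genes CV male 3 lay between the ranges. The call of Car3 was lost in 11 of 28 alternatives (adjusted p up to 0.263, without CV female 3) and that of G0s2 in 6 (up to 0.281, without CV male 1). In GF livers G0s2 had 625, 355 and 628 in males and 414, 745 and 629 in females, and the difference of its differences did not pass (1.94 ± 0.51, limma adjusted p = 0.543). Hsd17b6, a retinol and steroid dehydrogenase, had 1214 and 515 in CV males 1 and 2, 2248 in CV male 3 and 3368, 2552 and 4336 in CV females, and its call was lost in 4 of 28 alternatives (adjusted p up to 0.428, without CV male 2). The protease Ctsc had 227 and 176 in CV males 1 and 2, 511 in CV male 3 and 1098, 732 and 953 in CV females.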
